A study of Rattus norvegicus with 12 samples.

Results

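The 10 genes described here encode inflammatory and myeloid chemokines, the secreted or membrane-bound attractants of neutrophils, monocytes and T cells: Cxcl1, Cxcl2, Cxcl3, Cxcl6, Cxcl10, Cxcl11, Ccl2, Ccl7, Ccl20 and Cx3cl1. They were chosen by gene symbol, and each symbol stood on 1 gene among the 30957 genes of the deposited table. Messenger RNA was profiled by sequencing in cultured rat Schwann cells in 12 libraries. In 3 groups, Schwann cells were co-cultured with tumour-associated macrophages induced by the pancreatic cancer line MIA PaCa-2 (MiaTAM), with macrophages induced by the pancreatic cancer line BxPC-3 (BxTAM), and with monocyte-derived macrophages (MDM). The remaining group held Schwann cells without macrophages (alone). Each of the 4 groups had 3 libraries. All 12 libraries carry rat as their organism and Schwann cells as their cell type, and no group carries a genetic change. The sample titles of the cells alone read Rsc96, the name of an immortalised rat Schwann cell line, while their descriptions read HSC96. The MDM libraries are titled PBMC and carry the treatment label untreated, like the cells alone. The sources used here give neither the species of the macrophages, nor the length of co-culture, nor whether the cell types were separated before RNA extraction. A further kind of induced macrophage that the design text counts is not analysed here. No label says whether the libraries of a group are separate cultures, so a p-value measures the spread between these libraries, which may be technical.

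Chemokines are small proteins that bind G-protein-coupled receptors on leukocytes and set the direction in which those cells migrate. The CXC members Cxcl1, Cxcl2, Cxcl3 and Cxcl6 are attractants of neutrophils that act through Cxcr2. Cxcl10 and Cxcl11 are interferon-inducible ligands of Cxcr3 on activated T cells and natural killer cells. Ccl2 and Ccl7 draw monocytes through Ccr2, Ccl20 is the ligand of Ccr6 on lymphocytes and dendritic cells, and Cx3cl1 (fractalkine) is a membrane-tethered ligand of Cx3cr1 on monocytes and macrophages. In injured peripheral nerve, Schwann cells are a known source of Ccl2, which helps to bring in macrophages. Transcription of many of these genes is known to be induced through NF-kappaB, and that of Cxcl10 and Cxcl11 also through interferon-regulated factors.

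Promoter sequences were taken from RefSeq (build GRCr8), each from 250 bases before to 50 bases after the annotated start, and 8 of the 10 genes had an entry. Ccl2 and Cxcl3 had none. The 4 printed here belong to genes that took different courses across the groups: Cxcl1 and Cxcl6, which were lowest in MDM co-culture; Cxcl10, which was lowest in both TAM co-cultures; and Ccl7, which was lowest in cells alone. They are printed 5′ to 3′ on the strand of the gene, and capitals mark matches to the 3 motifs described after them. The Cxcl1 window is chr14:17479272-17479571 on the minus strand, that of Cxcl6 is chr14:17596368-17596667 on the minus strand, that of Cxcl10 is chr14:15988816-15989115 on the plus strand, and that of Ccl7 is chr10:67513845-67514144 on the plus strand.
Cxcl1: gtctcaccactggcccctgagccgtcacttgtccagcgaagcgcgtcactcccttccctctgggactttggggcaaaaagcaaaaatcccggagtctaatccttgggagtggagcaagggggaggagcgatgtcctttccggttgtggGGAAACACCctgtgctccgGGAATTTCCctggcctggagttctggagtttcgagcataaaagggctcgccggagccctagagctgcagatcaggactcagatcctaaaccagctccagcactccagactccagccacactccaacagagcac
Cxcl6: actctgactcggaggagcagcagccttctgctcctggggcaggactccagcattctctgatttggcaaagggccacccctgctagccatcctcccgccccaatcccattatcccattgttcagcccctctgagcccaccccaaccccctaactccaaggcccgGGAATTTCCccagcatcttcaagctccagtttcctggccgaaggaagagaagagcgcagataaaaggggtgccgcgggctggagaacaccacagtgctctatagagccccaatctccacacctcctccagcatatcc
Cxcl10: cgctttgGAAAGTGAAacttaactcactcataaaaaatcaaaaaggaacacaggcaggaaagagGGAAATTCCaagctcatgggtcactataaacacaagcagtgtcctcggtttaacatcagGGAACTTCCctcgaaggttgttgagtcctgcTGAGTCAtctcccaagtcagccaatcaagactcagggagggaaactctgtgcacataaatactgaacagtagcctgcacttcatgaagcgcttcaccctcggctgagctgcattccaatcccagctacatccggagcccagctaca
Ccl7: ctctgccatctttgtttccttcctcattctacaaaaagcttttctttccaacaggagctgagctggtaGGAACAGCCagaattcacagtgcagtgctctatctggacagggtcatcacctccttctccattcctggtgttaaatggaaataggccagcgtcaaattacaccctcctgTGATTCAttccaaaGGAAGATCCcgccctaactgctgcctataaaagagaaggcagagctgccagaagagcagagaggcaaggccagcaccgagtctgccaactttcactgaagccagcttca

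The motifs were searched on both strands. They were a kappaB site of NF-kappaB (GGNNNTTCC), an interferon-stimulated response element or ISRE (GAAANNGAA), and an AP-1 site (TGANTCA), and no match overlapped a match to another motif. Of all 33469 RefSeq rat promoter windows of this length, 18.3% held the kappaB motif, 9.71% the ISRE and 7.33% the AP-1 motif. Each of the 8 chemokine windows held at least 1 kappaB match. Cxcl1 and Cxcl6 carried the same 9 letters, GGAATTTCC, at 83 and 87 bases before the start. Cxcl1 had a further match at 102 bases, GGAAACACC as read on the gene's strand, whose letters match on the opposite strand. Cxcl2, the neighbour of Cxcl1, held GGGATTTCC at 73 bases and GGCTTTTCC at 53 bases. Cxcl10 held GGAAATTCC at 186 bases and GGAACTTCC at 127 bases, and was the 1 member with an ISRE match, at 243 bases. Cxcl11, the other Cxcr3 ligand, held GGAAATTCC at 73 bases. AP-1 matches stood in Cxcl10, Cxcl11 and Ccl7, at 96, 85 and 73 bases. A match describes letters in the window and does not show that a factor was bound in these cells.

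**Figure D1:**
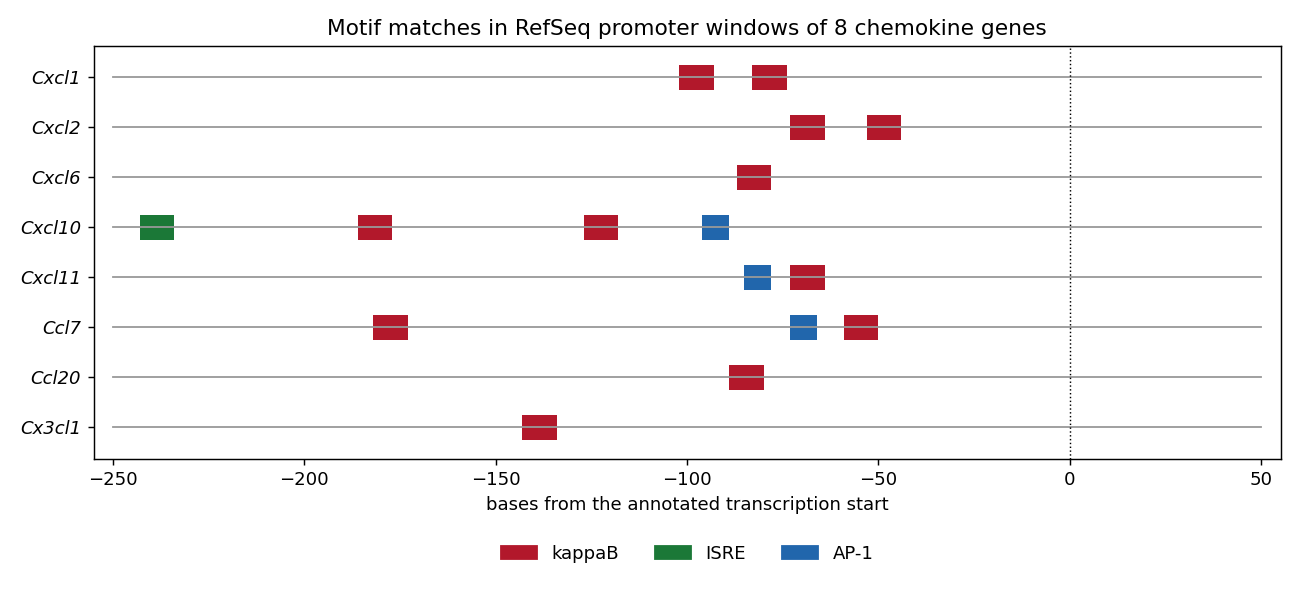
Positions of motif matches in the promoter windows of the 8 chemokine genes with a RefSeq entry, in bases from the annotated start (dotted line, 0), with upstream to the left. Red blocks are kappaB, green ISRE and blue AP-1 matches. Every window has a red block, and only that of Cxcl10 has a green one.

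Library totals ran from 16555215 to 21506669 counts. Of all genes, 12360 passed the filter on low counts and were tested, and the median log2 change over them was within 0.00894 of 0 in each comparison. The summed level of 26 macrophage and monocyte markers was 67.1 to 71.3 CPM in MiaTAM, 60.4 to 62.2 CPM in BxTAM, 63.3 to 69.2 CPM in MDM and 28.2 to 31.3 CPM in cells alone. CPM are counts relative to library size, after scaling of the libraries by trimmed mean of M-values (TMM). Most of that sum was Itgax, an integrin gene. Of the 7 markers that were tested, 6 were called higher than in cells alone in each of the 3 co-cultures, and the other one was not called. Of all tested genes, 31.4% were called higher than in cells alone in MiaTAM, 30.0% in BxTAM and 32.0% in MDM. Csf1r, the receptor of macrophage colony-stimulating factor, had 9.25 ± 1.24 CPM in MiaTAM, 7.70 ± 0.60 CPM in BxTAM, 5.68 ± 0.32 CPM in MDM and 3.34 ± 0.20 CPM in cells alone. Lcp1, an actin-bundling protein of leukocytes, had 4.41 ± 0.52 CPM in MiaTAM, 3.97 ± 0.56 CPM in BxTAM, 3.62 ± 0.21 CPM in MDM and 1.56 ± 0.19 CPM in cells alone, and Cd68, a lysosomal protein of macrophages, had 1.87 ± 0.27 CPM in MiaTAM, 1.16 ± 0.12 CPM in BxTAM, 1.10 ± 0.08 CPM in MDM and 0.416 ± 0.19 CPM in cells alone. Cd68 passed the filter on low counts through the co-culture groups in which it was high. Its calls against cells alone are therefore no support for the count of called markers. Averages of 20 markers stayed under 1 CPM in every group. Among these, the defining marker Ptprc (CD45) had 2, 1, 0 and 0 counts over the 3 libraries of MiaTAM, BxTAM, MDM and cells alone, and 4 markers (Marco, C1qa, Tyrobp, Cd86) were at 0 in all 12 libraries. The 7 fibroblast markers summed to 493.5 to 528 CPM in MiaTAM, 443 to 469 CPM in BxTAM, 509 to 536 CPM in MDM and 389 to 399.6 CPM in cells alone. The 5 epithelial markers summed to 4.55 to 4.96 CPM in MiaTAM, 3.41 to 4.61 CPM in BxTAM, 8.69 to 9.85 CPM in MDM and 3.14 to 3.86 CPM in cells alone. Lymphocyte and neutrophil markers stayed at or under 2.22 and 0.460 CPM in every library. The part of RNA from other cells in the chemokine values was not tested. Of 12 Schwann lineage markers, 11 were found and 6 were tested. They summed to 1688.7 to 1843 CPM in MiaTAM, 1729.9 to 1829.7 CPM in BxTAM, 1907 to 2061 CPM in MDM and 1831 to 1868 CPM in cells alone, of which most was Vim, a gene that many cell types express. Pmp22, a myelin protein gene, had 89.3 ± 2.15 CPM in MiaTAM, 85.3 ± 2.55 CPM in BxTAM, 75.3 ± 2.63 CPM in MDM and 93.3 ± 3.23 CPM in cells alone, and Erbb3, the neuregulin receptor of Schwann cells, had 15.2 ± 1.25 CPM in MiaTAM, 10.9 ± 1.07 CPM in BxTAM, 12.9 ± 1.92 CPM in MDM and 7.14 ± 0.87 CPM in cells alone. Sox10, a transcription factor that defines these cells, had a total of 1 count, and Cdh19 had 0. These are bulk samples, in which fewer cells that make an mRNA and less of it per cell cannot be told apart.

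Cxcl1 and Ccl2 were the most abundant of the 10 messages in these libraries. On the length-scaled FPKM values of the deposited table, which allow levels to be compared between genes, Cxcl1 and Ccl2 together made up 86.5% of the summed FPKM of the 10 genes in MiaTAM, 85.3% in BxTAM, 76.2% in MDM and 86.4% in cells alone (means of 3 libraries). Cxcl1 averaged 175 ± 6.64 FPKM in MiaTAM, 194 ± 8.46 FPKM in BxTAM, 87.6 ± 2.33 FPKM in MDM and 253 ± 21.2 FPKM in cells alone (SD, n = 3 each). In cells alone it ranked 248th from the top among the 12360 tested genes, and in MDM co-culture 874th. Cxcl10 was the member next in level in every group. Cxcl12, which is not among the 10 and not in the sum, had 25.5 ± 0.71 FPKM in MiaTAM, 40.7 ± 0.88 FPKM in BxTAM, 14.5 ± 0.80 FPKM in MDM and 43.6 ± 0.44 FPKM in cells alone. Cxcl10 made up 5.33% of the sum in MiaTAM, 6.0% in BxTAM, 16.6% in MDM and 7.89% in cells alone. Its mean FPKM was 16.7 in MiaTAM, 19.8 in BxTAM, 32.9 in MDM and 34.0 in cells alone. The larger share in MDM than in cells alone thus came without a higher Cxcl10 level. The remaining 7 genes were lower, and Cxcl2, Cxcl11 and Ccl20 reached at most 0.380 FPKM in any library, in Cxcl11. The ratio of Cxcl1 to Cxcl10 FPKM was 10.5 ± 0.57 in MiaTAM, 9.77 ± 0.46 in BxTAM, 2.66 ± 0.04 in MDM and 7.45 ± 0.44 in cells alone, and the 3 libraries of MDM co-culture lay apart from those of the other groups.

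**Figure D2:**
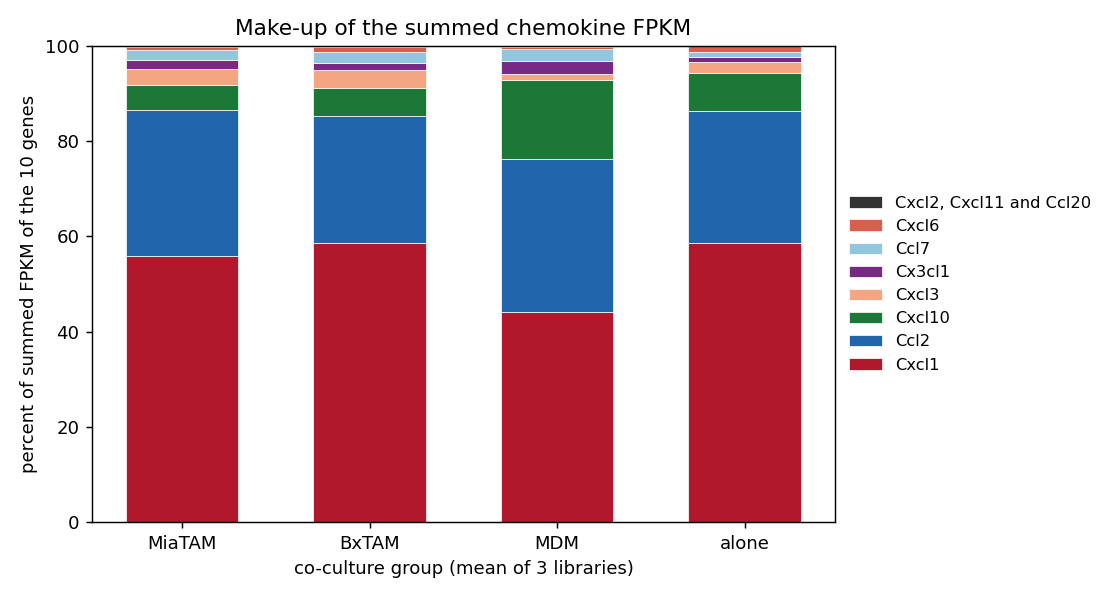
Make-up of the summed FPKM of the 10 chemokine genes in percent (vertical axis), as the mean of 3 libraries in each group (horizontal axis); each colour is a gene. Cxcl1 and Ccl2 fill most of every bar, and the green Cxcl10 segment is widest in MDM co-culture, at 16.6%.

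**Figure D3:**
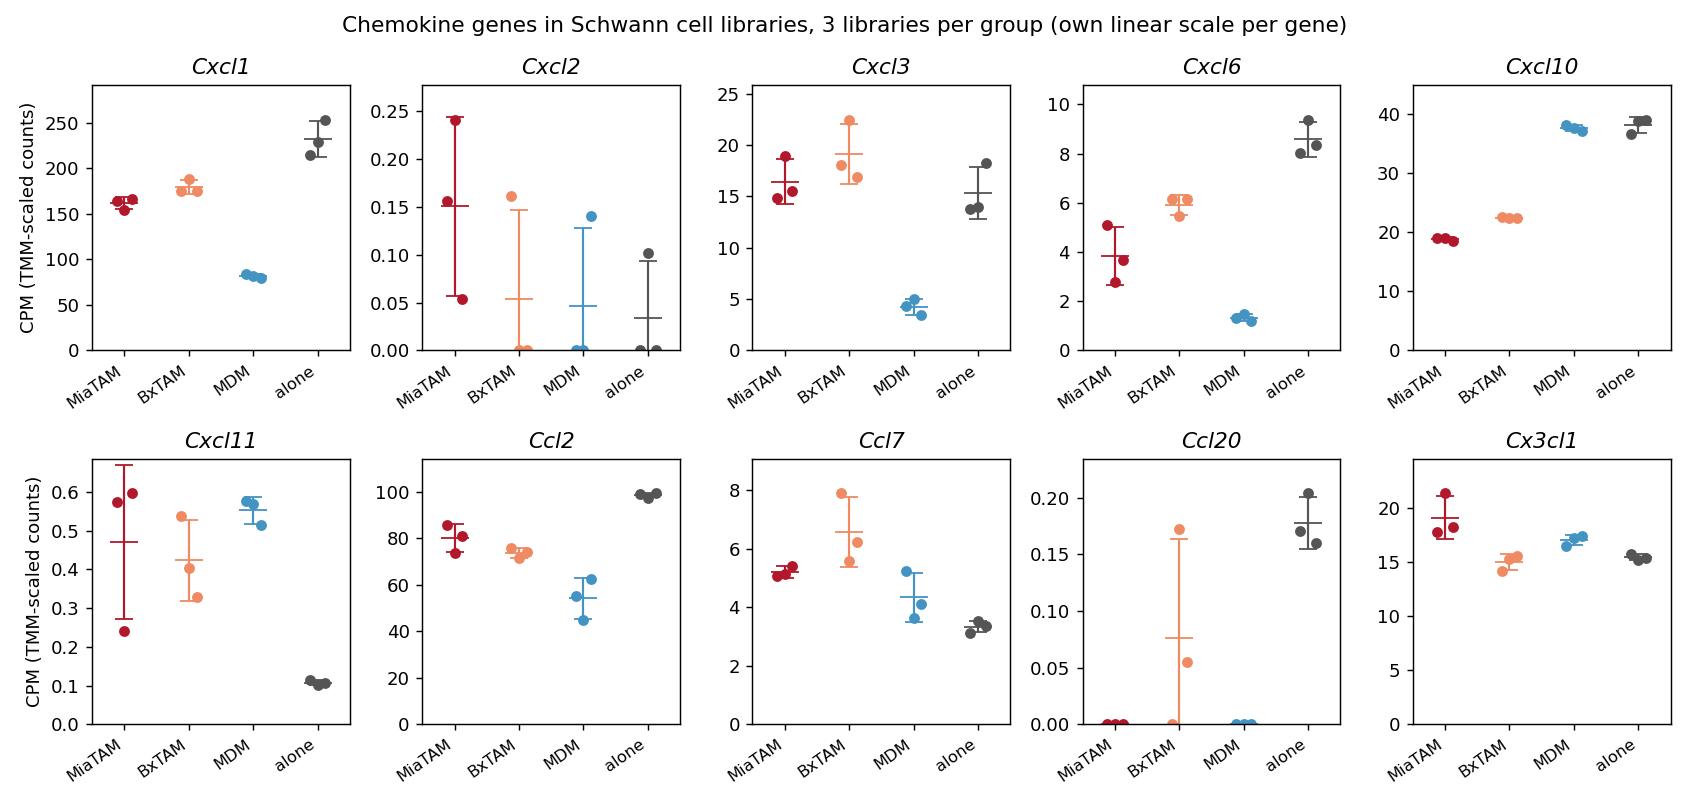
CPM of each chemokine gene (vertical axis, linear, own scale per gene) in the 4 groups (horizontal axis); points are libraries, and the long marks and bars are the mean and SD of 3 libraries, cut at 0. Cxcl1, Cxcl3, Cxcl6 and Ccl2 were lowest in MDM co-culture, and Cxcl10 was lowest in the TAM co-cultures.

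Of the 10 members, 8 entered the tests; Cxcl2 and Ccl20 did not pass the filter and are given as counts. Genes were called at a Benjamini-Hochberg adjusted p under 0.05 from edgeR's quasi-likelihood test, adjusted over all tested genes, and each member weighs 12.5% of the 8. In MDM co-culture against cells alone, Cxcl1, Cxcl3, Cxcl6 and Ccl2 were lower and Cxcl11 was higher. That was 4 of 8 lower, where 33.1% of all tested genes were lower, and 1 of 8 higher, where 32.0% were. The 1 higher member, Cxcl11, passed the filter through the co-culture groups in which it was high, so its call against cells alone is no support for a count, here and in both TAM co-cultures. In BxTAM against MDM co-culture, 5 of 8 were higher (Cxcl1, Cxcl3, Cxcl6, Ccl2 and Ccl7), where 17.4% of all tested genes were, and Cxcl10 alone was lower, where 17.3% were. In MiaTAM against MDM co-culture, 4 of 8 were higher (Cxcl1, Cxcl3, Cxcl6 and Ccl2), where 19.8% of all tested genes were, and Cxcl10 was again the 1 lower member, where 21.1% were. The median log2 change of the 8 members was -0.44 in MDM against alone, 0.52 in BxTAM against MDM and 0.42 in MiaTAM against MDM.

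Set against cells alone, both TAM co-cultures split the members between higher and lower. In BxTAM, 3 of 8 were higher (Cxcl3, Cxcl11 and Ccl7), where 30.0% of all tested genes were, and 4 of 8 were lower (Cxcl1, Cxcl6, Cxcl10 and Ccl2), where 30.9% were. In MiaTAM, 3 of 8 were higher (Cxcl11, Ccl7 and Cx3cl1), where 31.4% of all tested genes were, and the same 4 of 8 were lower, where 33.7% were. The higher shares are within 1 member of the shares over all genes, and 2 of the 3 higher members in each remain without Cxcl11. In MiaTAM against BxTAM, Cx3cl1 was higher, 1 of 8 where 11.0% of all tested genes were, and 3 of 8 were lower (Cxcl1, Cxcl6 and Cxcl10), where 13.3% were. Median changes of the members were -0.21 in BxTAM against alone, -0.10 in MiaTAM against alone and -0.19 in MiaTAM against BxTAM. These comparisons share groups, so their counts are not separate evidence. In MDM against alone, upper-quartile scaling in place of TMM gave 3 members higher and 4 lower, adding Ccl7 and Cx3cl1 to the higher ones. The same scaling gave 4579 higher and 3497 lower among all 12360 tested genes, against 3952 and 4095 with TMM, so the calls over all genes shifted the same way.

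**Figure D4:**
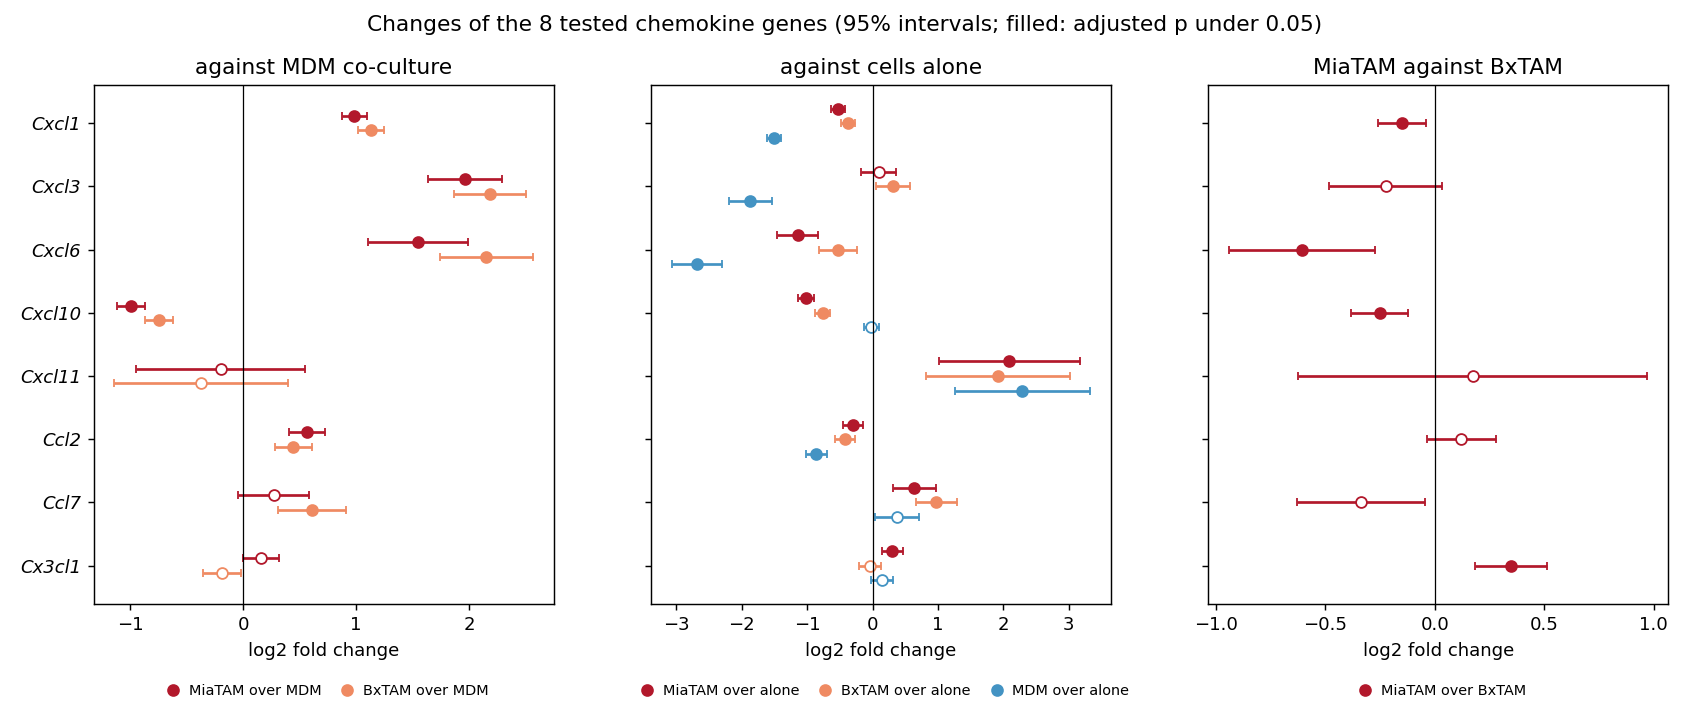
Log2 fold changes (horizontal axis) of the 8 tested chemokine genes with 95% intervals, in MiaTAM and BxTAM against MDM co-culture (left), in MiaTAM, BxTAM and MDM against cells alone (middle) and in MiaTAM against BxTAM (right). Filled points have an edgeR adjusted p under 0.05; in the left panel Cxcl1, Cxcl3, Cxcl6 and Ccl2 lie right of 0 in both TAM co-cultures and Cxcl10 left of it.

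The neutrophil chemokine genes Cxcl1, Cxcl3 and Cxcl6 shared a dip in MDM co-culture. Cxcl1, the most abundant member (Rnor_6.0, 14:18743685-18745457, ENSRNOG00000002802), had 165, 154 and 167 CPM in the MiaTAM libraries, 175, 189 and 175 CPM in BxTAM, 83.9, 82.2 and 79.6 CPM in MDM and 215, 229 and 254 CPM in cells alone. The 4 groups did not overlap, with MDM lowest, then MiaTAM, BxTAM and cells alone. MDM co-culture was 2.84-fold lower than cells alone (log2 change -1.51 ± 0.05 SE, edgeR adjusted p = 4.45e-15). BxTAM was 2.19-fold higher than MDM (log2 1.13 ± 0.05, edgeR adjusted p = 3.45e-12) and MiaTAM 1.98-fold higher than MDM (0.98 ± 0.05, edgeR adjusted p = 2.77e-11). Both TAM groups still lay below cells alone, with log2 changes of -0.37 ± 0.05 in BxTAM (edgeR adjusted p = 2.79e-06) and -0.52 ± 0.05 in MiaTAM (edgeR adjusted p = 2.43e-08). The step from BxTAM down to MiaTAM was small, at a log2 change of -0.15 ± 0.05 in MiaTAM (edgeR adjusted p = 0.0444). It lost its call under DESeq2 (adjusted p = 0.0528) and whenever any 1 of the 6 MiaTAM and BxTAM libraries was left out, with changes of -0.11 to -0.17.

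Cxcl3 (14:18820168-18839595, ENSRNOG00000028043) encodes another neutrophil attractant of the same cluster. It had 14.9, 18.9 and 15.5 CPM in MiaTAM, 18.0, 22.5 and 16.9 CPM in BxTAM, 4.33, 4.998 and 3.41 CPM in MDM, and 13.8, 13.98 and 18.3 CPM in cells alone. MDM lay apart and below, while the other 3 groups overlapped each other. The gene was 3.65-fold lower in MDM than in cells alone (-1.87 ± 0.16, edgeR adjusted p = 1.85e-09), and higher than in MDM by 4.55-fold in BxTAM (2.19 ± 0.15, edgeR adjusted p = 7.86e-10) and 3.90-fold in MiaTAM (1.96 ± 0.16, edgeR adjusted p = 5.01e-09). BxTAM was 1.24-fold higher than cells alone (0.32 ± 0.12, edgeR adjusted p = 0.0334), with overlapping libraries. That call was lost without cells-alone library 1 (0.26, edgeR adjusted p = 0.116), without cells-alone library 2 (0.26, edgeR adjusted p = 0.119) and without BxTAM library 2 (0.19, edgeR adjusted p = 0.229). MiaTAM differed from cells alone by 0.09 (95% interval -0.17 to 0.36) and from BxTAM by -0.22 (-0.48 to 0.03), and neither passed.

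Cxcl6 (14:18860264-18862407, ENSRNOG00000002843), whose human counterpart binds CXCR1 and CXCR2, showed the largest fold change of the 3 in MDM against cells alone. It had 5.11, 2.77 and 3.69 CPM in MiaTAM, 6.17, 5.46 and 6.15 CPM in BxTAM, 1.33, 1.48 and 1.21 CPM in MDM and 8.01, 9.39 and 8.36 CPM in cells alone. The groups did not overlap and stood in the same order as for Cxcl1. MDM was 6.43-fold lower than cells alone (-2.69 ± 0.18, edgeR adjusted p = 7.52e-11), and BxTAM and MiaTAM were 4.44-fold and 2.92-fold higher than MDM (2.15 ± 0.20, edgeR adjusted p = 3.89e-08, and 1.55 ± 0.21, edgeR adjusted p = 8.09e-06). Against cells alone, BxTAM was lower by a log2 change of -0.53 ± 0.14 (edgeR adjusted p = 0.00246) and MiaTAM by -1.14 ± 0.15 (edgeR adjusted p = 1.25e-06). MiaTAM was 1.52-fold lower than BxTAM (-0.61 ± 0.16, edgeR adjusted p = 0.00934). Without MiaTAM library 2, which held the lowest value of its group, this became -0.43 and missed the threshold (edgeR adjusted p = 0.0591).

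Cxcl2 (14:18731378-18733391, ENSRNOG00000002792), the closest neighbour of Cxcl1 on the chromosome, was near the limit of detection. It had 3, 4 and 1 counts in the MiaTAM libraries, 3, 0 and 0 in BxTAM, 0, 0 and 3 in MDM and 0, 2 and 0 in cells alone. The ratio of MiaTAM to MDM was 2.80 with a 95% counting interval of 0.672 to 16.4, and that of MiaTAM to cells alone was 4.10 with an interval of 0.818 to 39.6. A difference was not detectable at this depth, and such intervals cover counting error only. Cxcl1, Cxcl2, Cxcl3 and Cxcl6 are paralogs, and the sources used here do not say how reads that match more than 1 of them were counted, so the division of reads among them is uncertain.

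The Cxcr3 ligands behaved differently from the neutrophil group and from each other. Cxcl10 (14:17210733-17212930, ENSRNOG00000022256), an attractant of activated T cells, had 19.1, 19.1 and 18.5 CPM in MiaTAM, 22.6, 22.4 and 22.5 CPM in BxTAM, 38.2, 37.6 and 37.2 CPM in MDM and 36.6, 38.9 and 39.1 CPM in cells alone. Both TAM groups lay apart from each other and below MDM and cells alone, which overlapped. Libraries of a group were close, with an SD of 0.35 CPM in MiaTAM, 0.08 in BxTAM, 0.52 in MDM and 1.39 in cells alone. Cxcl10 was lower in MiaTAM by 1.99-fold against MDM (-0.995 ± 0.06, edgeR adjusted p = 7.51e-11) and by 2.02-fold against cells alone (-1.02 ± 0.06, edgeR adjusted p = 6.02e-12). In BxTAM it was 1.67-fold lower than in MDM (-0.74 ± 0.06, edgeR adjusted p = 3.77e-09) and 1.70-fold lower than in cells alone (-0.76 ± 0.06, edgeR adjusted p = 4.70e-10). MiaTAM was also lower than BxTAM (-0.25 ± 0.06, edgeR adjusted p = 0.00650). MDM and cells alone differed by -0.02 (95% interval -0.14 to 0.09, edgeR adjusted p = 0.757), and upper-quartile scaling put this value at 0.04.

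Cxcl11 (14:17195014-17198291, ENSRNOG00000022298), which shares the receptor of Cxcl10, was scarce. It had 11, 4 and 11 counts in MiaTAM, 10, 7 and 6 in BxTAM, 10, 10 and 11 in MDM and 2, 2 and 2 in cells alone. Every co-culture library exceeded every library of cells alone, and the co-culture groups overlapped. The gene passed the filter through the co-culture groups, in which it was higher, so a difference from cells alone was part of its being tested. The fitted log2 changes against cells alone were 2.09 ± 0.52 in MiaTAM (edgeR adjusted p = 0.00138), 1.92 ± 0.53 in BxTAM (edgeR adjusted p = 0.00385) and 2.29 ± 0.50 in MDM (edgeR adjusted p = 4.27e-04). On the scale of log2(FPKM + 1), on which low genes change little, the same differences were 0.28, 0.25 and 0.34. Cxcl10 and Cxcl11 both lie inside the annotated interval of Art3, which had 2 counts in all 12 libraries. Whether counting took account of strand is not stated.

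The monocyte chemokine genes Ccl2 and Ccl7 lie 9.216 kb apart on chromosome 10 and moved in opposite directions in both TAM co-cultures against cells alone. Ccl2 (10:69412017-69413870, ENSRNOG00000007159), the main ligand of Ccr2, had 85.7, 73.8 and 81.1 CPM in MiaTAM, 75.7, 71.5 and 74.0 CPM in BxTAM, 55.1, 44.9 and 62.4 CPM in MDM and 98.9, 97.5 and 99.3 CPM in cells alone. Cells alone were highest and MDM lowest, without overlap, and both TAM groups overlapped each other between them. Ccl2 was 1.82-fold lower in MDM than in cells alone (-0.86 ± 0.08, edgeR adjusted p = 4.54e-09). It was higher than in MDM by 1.48-fold in MiaTAM (0.56 ± 0.08, edgeR adjusted p = 8.55e-06) and by 1.36-fold in BxTAM (0.44 ± 0.08, edgeR adjusted p = 1.76e-04). Against cells alone it was lower by -0.30 ± 0.07 in MiaTAM (edgeR adjusted p = 0.00163) and by -0.42 ± 0.08 in BxTAM (edgeR adjusted p = 6.71e-05). MiaTAM and BxTAM differed by 0.12 (95% interval -0.04 to 0.28), which did not pass.

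Ccl7 (10:69423086-69424979, ENSRNOG00000000239), a second Ccr2 ligand, had 5.06, 5.12 and 5.42 CPM in MiaTAM, 7.89, 5.58 and 6.21 CPM in BxTAM, 5.25, 3.63 and 4.11 CPM in MDM and 3.13, 3.52 and 3.35 CPM in cells alone. All co-culture libraries were above those of cells alone, and MiaTAM overlapped MDM. Against cells alone the gene was 1.97-fold higher in BxTAM (0.98 ± 0.15, edgeR adjusted p = 1.21e-05) and 1.56-fold higher in MiaTAM (0.64 ± 0.16, edgeR adjusted p = 0.00140). The MDM difference, 0.37 ± 0.16, missed the threshold (edgeR adjusted p = 0.0514), and lay close to it under other settings. The adjusted p was 0.0486 with DESeq2 size factors, 0.0252 with upper-quartile factors, 0.0436 with no filter, 0.0476 with a replicate block and 0.0466 with only the 2 groups in the edgeR fit, but 0.113 by DESeq2 and 0.0539 by limma. Without MDM library 2, the lowest of its group, the change was 0.47 (edgeR adjusted p = 0.0229), and without MDM library 1, the highest, it was 0.22 (edgeR adjusted p = 0.275). BxTAM was 1.52-fold higher than MDM (0.61 ± 0.14, edgeR adjusted p = 0.00266). MiaTAM differed from MDM by 0.27 (edgeR adjusted p = 0.163; 0.42 and edgeR adjusted p = 0.0486 without MDM library 1) and from BxTAM by -0.34 (edgeR adjusted p = 0.0872; -0.44 and edgeR adjusted p = 0.0497 without BxTAM library 2). The ratio of Ccl2 to Ccl7 FPKM was 15.7 ± 1.36 in MiaTAM, 11.7 ± 1.69 in BxTAM, 12.9 ± 2.40 in MDM and 30.2 ± 2.02 in cells alone, where every library had a higher ratio than any co-culture library.

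Ccl20 (9:88918433-88921001, ENSRNOG00000015992), the ligand of Ccr6, had 0, 0 and 0 counts in MiaTAM, 0, 3 and 1 in BxTAM, 0, 0 and 0 in MDM and 3, 4 and 3 in cells alone. With a floor of 3 counts over a group in place of 0, the gene was 3.25-fold lower in MiaTAM and 3.42-fold lower in MDM than in cells alone. These are not lower bounds, because they take the 10 counts of cells alone without error. The 95% counting interval of those counts was 4.80 to 18.4. The ratio of BxTAM to cells alone was 0.410, with a 95% counting interval of 0.0938 to 1.42. Ccl20 did not pass the filter and had no test in the fit reported here. Without a filter on low counts, the edgeR adjusted p was 0.0106 for MiaTAM and 0.00962 for MDM against cells alone.

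Cx3cl1 (19:10644244-10653800, ENSRNOG00000016326), the membrane-tethered member, kept to a narrow range. It had 17.7, 21.3 and 18.2 CPM in MiaTAM, 14.1, 15.3 and 15.5 CPM in BxTAM, 16.5, 17.2 and 17.4 CPM in MDM and 15.7, 15.2 and 15.3 CPM in cells alone. MiaTAM was highest and overlapped no other group, and BxTAM overlapped cells alone. Cx3cl1 was 1.24-fold higher in MiaTAM than in cells alone (0.30 ± 0.08, edgeR adjusted p = 0.00192) and 1.27-fold higher than in BxTAM (0.35 ± 0.08, edgeR adjusted p = 0.00349). MiaTAM and MDM differed by 0.16 (95% interval -9.51e-04 to 0.32), BxTAM and MDM by -0.19 (-0.35 to -0.02), BxTAM and cells alone by -0.04 (-0.21 to 0.13), and MDM and cells alone by 0.14 (-0.02 to 0.31), and none of these passed. Upper-quartile scaling put BxTAM against cells alone at 0.01 and called MDM against cells alone, at 0.20 (edgeR adjusted p = 0.0308). Cleavage by Adam10 and Adam17 is known to release Cx3cl1 from the membrane. Adam17 had 77.7 ± 4.38 CPM in MiaTAM, 86.4 ± 1.27 CPM in BxTAM, 70.0 ± 2.99 CPM in MDM and 97.9 ± 2.86 CPM in cells alone. It was lower than in cells alone in all 3 co-cultures, by -0.33 ± 0.05 in MiaTAM, -0.18 ± 0.05 in BxTAM and -0.48 ± 0.05 in MDM (edgeR adjusted p = 3.39e-06, 0.00228 and 1.85e-08). Adam10 had 103 ± 4.86 CPM in MiaTAM, 119 ± 0.42 CPM in BxTAM, 112 ± 4.84 CPM in MDM and 123 ± 1.47 CPM in cells alone, and was lower than in cells alone in MiaTAM (-0.26 ± 0.04) and MDM (-0.13 ± 0.04).

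Neighbouring genes of the chemokine clusters differed widely in their counts. Cxcl2, Cxcl1, Cxcl3 and Cxcl6 lie within 131.03 kb of chromosome 14, with Pf4 and Ppbp, genes of platelet chemokines, between Cxcl3 and Cxcl6. Pf4 and Ppbp had 0 counts in all 12 libraries, against 36159 for Cxcl1, 3016 for Cxcl3 and 1091 for Cxcl6. In the Cxcl10 region, Cxcl9, the remaining interferon-inducible Cxcr3 ligand, had 0 counts, against 6507 for Cxcl10 and 86 for Cxcl11. Beyond Ccl2 and Ccl7, the next genes Ccl11, Ccl12 and Ccl1 had 0. Cx3cl1 stood between Ccl17 with 0 and Ccl22 with 2 counts, against 3667 of its own. These are raw counts, not scaled for gene length.

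Of the other 25 chemokine ligand genes looked up, 15 had 0 counts in all libraries and 23 averaged under 1 CPM in every group, so that 2 were tested. Cxcl12, which retains stem cells and lymphocytes through Cxcr4, had 138 ± 2.85 CPM in MiaTAM, 221 ± 4.65 CPM in BxTAM, 79.1 ± 3.63 CPM in MDM and 234 ± 1.35 CPM in cells alone. Like Cxcl1 it was lowest in MDM co-culture (-1.57 ± 0.04 against cells alone) and lower in MiaTAM than in BxTAM (-0.68 ± 0.04), while BxTAM and cells alone differed by -0.09 ± 0.04, which did not pass. Cxcl16, a membrane-tethered ligand of Cxcr6, had 40.2 ± 2.15 CPM in MiaTAM, 47.6 ± 1.25 CPM in BxTAM, 38.1 ± 1.04 CPM in MDM and 42.6 ± 1.43 CPM in cells alone. The receptors of the 10 chemokines were barely detected. Cxcr1, Ccr2 and Ccr6 had 0 counts in all 12 libraries, and Cx3cr1 had 1, in MiaTAM. Cxcr2 had 1, 5, 4 and 2 counts over the 3 libraries of MiaTAM, BxTAM, MDM and cells alone, and Cxcr3 had 4, 3, 1 and 12. Of 23 receptor genes listed, 22 were found, and Ccrl2, an atypical receptor that binds chemerin, was the 1 tested. It had 0.987 ± 0.26 CPM in MiaTAM, 0.942 ± 0.08 CPM in BxTAM, 1.49 ± 0.91 CPM in MDM and 0.714 ± 0.26 CPM in cells alone, and its libraries varied most in MDM. Ccrl2 was called higher in MDM than in cells alone (1.05 ± 0.37, edgeR adjusted p = 0.0184) and in no other comparison.

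Genes of the NF-kappaB pathway, a textbook inducer of Cxcl1, Cxcl2, Ccl2 and Ccl20, were measured alongside. Of 16 subunit and inhibitor genes, all tested, 10 were higher and 2 lower in MiaTAM than in MDM, where 19.8% and 21.1% of all tested genes were. In BxTAM against MDM 9 were higher, where 17.4% of all tested genes were, and the other 7 were not called. Against cells alone, 9 were higher and 3 lower in MiaTAM (31.4% and 33.7% of all tested genes), 9 higher and the other 7 not called in BxTAM (30.0% higher and 30.9% lower of all), and 3 higher and 4 lower in MDM (32.0% and 33.1% of all). MiaTAM against BxTAM had 2 higher and 1 lower, where 11.0% and 13.3% of all tested genes were. The list's median log2 change was 0.30 in MiaTAM and 0.15 in BxTAM against MDM, where the median of all tested genes lay within 0.00894 of 0. Nfkbia, the feedback inhibitor that NF-kappaB itself induces, had 69.1 ± 2.52 CPM in MiaTAM, 70.4 ± 5.52 CPM in BxTAM, 35.4 ± 1.29 CPM in MDM and 54.4 ± 3.60 CPM in cells alone. Like Cxcl1 it was lowest in MDM (-0.62 ± 0.06 against cells alone, edgeR adjusted p = 3.87e-08). Unlike Cxcl1 it was higher in both TAM groups than in cells alone (0.34 ± 0.06 in MiaTAM and 0.37 ± 0.06 in BxTAM). Tnfaip3 (A20), a deubiquitinase that ends NF-kappaB signalling, had 17.4 ± 0.77 CPM in MiaTAM, 20.3 ± 0.70 CPM in BxTAM, 12.9 ± 0.62 CPM in MDM and 19.9 ± 1.46 CPM in cells alone. Nfkbiz, which encodes an atypical inhibitor, was higher than in MDM by 0.81 ± 0.09 in MiaTAM and 0.79 ± 0.09 in BxTAM, and Tnip1, which encodes an A20-binding protein, by 0.48 ± 0.04 and 0.45 ± 0.04. Between MDM and cells alone they differed by 0.07 ± 0.09 and 0.03 ± 0.04, which did not pass. Nfkbie, another inhibitor gene of the list, went another way. It was higher in MDM than in cells alone (0.70 ± 0.08, edgeR adjusted p = 1.64e-07). Against MDM it was not called in MiaTAM (-0.04 ± 0.08) or BxTAM (-0.07 ± 0.08). The part of the NF-kappaB genes in the chemokine levels was not tested.

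Receptors and adaptors that signal to NF-kappaB gave 15 tested genes. Of these, 10 were higher and 3 lower in MiaTAM than in MDM (19.8% and 21.1% of all tested genes), and 9 higher and 1 lower in BxTAM than in MDM (17.4% and 17.3% of all). In MDM against cells alone 4 were higher and 8 lower (32.0% and 33.1% of all). Against cells alone, 5 were higher and 1 lower in MiaTAM (31.4% and 33.7% of all) and 5 higher and 3 lower in BxTAM (30.0% and 30.9% of all), so the higher counts there were near the share over all genes. Il1rap was the 1 gene of the list called in MiaTAM against BxTAM, and it was lower (11.0% higher and 13.3% lower of all). Il1r1, the interleukin-1 receptor, had 111 ± 5.71 CPM in MiaTAM, 112 ± 3.43 CPM in BxTAM, 89.5 ± 1.89 CPM in MDM and 114 ± 4.67 CPM in cells alone. Tlr2, a receptor of microbial lipoproteins, had 3.85 ± 0.47 CPM in MiaTAM, 3.14 ± 0.26 CPM in BxTAM, 1.64 ± 0.19 CPM in MDM and 2.69 ± 0.34 CPM in cells alone. Both were lowest in MDM co-culture, as Cxcl1, Cxcl3, Cxcl6 and Ccl2 were. Il1rap, the accessory chain of the interleukin-1 receptor, went another way and was lowest in cells alone, with 85.0 ± 5.17 CPM in MiaTAM, 115 ± 4.59 CPM in BxTAM, 104 ± 4.59 CPM in MDM and 54.2 ± 2.66 CPM in cells alone. Tnfrsf1b was also lowest in cells alone, with mean CPM of 84.9 in MiaTAM, 79.9 in BxTAM, 67.2 in MDM and 50.3 in cells alone. Irak1 was lower in MiaTAM and BxTAM (80.1 and 78.7 CPM) than in MDM (88.7 CPM), and highest in cells alone (119 CPM). The part of the genes of this list in the chemokine levels was not tested.

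The interferon axis, through which Cxcl10 and Cxcl11 are classically induced, had 20 of 22 genes tested. In MiaTAM 5 were higher and 3 lower than in MDM (19.8% and 21.1% of all tested genes), and in BxTAM 7 were higher and 3 lower than in MDM (17.4% and 17.3% of all). Against cells alone, 3 were higher and 4 lower in MiaTAM (31.4% and 33.7% of all), 6 higher and 5 lower in BxTAM (30.0% and 30.9% of all), and 4 higher and 7 lower in MDM (32.0% and 33.1% of all). MiaTAM against BxTAM had 2 higher and 3 lower (11.0% and 13.3% of all). Gbp2, an interferon-inducible GTPase, had 83.7 ± 1.77 CPM in MiaTAM, 107 ± 7.61 CPM in BxTAM, 82.5 ± 2.77 CPM in MDM and 187 ± 1.93 CPM in cells alone. It was lower than in cells alone in all 3 co-cultures, MDM included, where Cxcl10 was not called. Oasl, an interferon-induced antiviral gene, had 52.0 ± 0.46 CPM in MiaTAM, 43.5 ± 0.77 CPM in BxTAM, 74.3 ± 5.64 CPM in MDM and 32.6 ± 1.71 CPM in cells alone, and was highest in MDM. Irf1, an interferon-induced transcription factor, was higher than in MDM by 0.24 ± 0.05 in MiaTAM and 0.29 ± 0.05 in BxTAM.

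Messages of Cxcl1, Cxcl2 and Ccl2 carry AU-rich elements that decay factors are known to bind. Zfp36 (tristetraprolin), which promotes the decay of such messages, had 20.8 ± 2.47 CPM in MiaTAM, 22.8 ± 0.92 CPM in BxTAM, 35.7 ± 1.62 CPM in MDM and 27.7 ± 0.47 CPM in cells alone. It was highest in MDM, the group in which Cxcl1, Cxcl3, Cxcl6 and Ccl2 were lowest. It lay 0.37 ± 0.07 above cells alone in MDM (edgeR adjusted p = 1.66e-04), and changed against MDM by -0.78 ± 0.07 in MiaTAM and -0.65 ± 0.07 in BxTAM (edgeR adjusted p = 7.52e-08 and 9.62e-07). Zc3h12a (Regnase-1), an RNase that cleaves inflammatory messages, had 62.0 ± 2.74 CPM in MiaTAM, 60.4 ± 2.54 CPM in BxTAM, 34.5 ± 0.90 CPM in MDM and 36.2 ± 2.50 CPM in cells alone. It was higher in both TAM groups than in either other group, and MDM differed from cells alone by -0.07 ± 0.06, which did not pass. Of the 9 tested genes of the decay, shedding and cleavage list, 2 were higher and 4 lower in MiaTAM than in MDM (19.8% and 21.1% of all tested genes), 3 higher and 2 lower in BxTAM than in MDM (17.4% and 17.3% of all), and 4 higher and 4 lower in MDM than in cells alone (32.0% and 33.1% of all). The list had 3 higher and 5 lower in MiaTAM (31.4% and 33.7% of all), and 3 higher and 4 lower in BxTAM (30.0% and 30.9% of all), against cells alone. In MiaTAM against BxTAM 3 were lower, where 13.3% of all were, and the other 6 were not called. The part of these genes in the chemokine levels was not tested.

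Across the 12 libraries, Cxcl1, Cxcl3, Cxcl6 and Ccl2 were correlated to differing degrees. On log2 CPM, Pearson's r was 0.97 between Cxcl1 and Cxcl6, 0.89 between Cxcl1 and Cxcl3, 0.83 between Cxcl3 and Cxcl6, 0.90 between Cxcl1 and Ccl2, 0.87 between Cxcl6 and Ccl2 and 0.70 between Cxcl3 and Ccl2. Cxcl10 did not follow them (r = -0.23 with Cxcl1, -0.59 with Cxcl3, -0.16 with Cxcl6 and -0.13 with Ccl2). Nor did Ccl7 (r = -0.06 with Cxcl1, 0.27 with Cxcl3, -0.05 with Cxcl6 and -0.20 with Ccl2). Between Cxcl10 and Ccl7, r was -0.72. These are descriptions over 12 libraries that share 4 group means and their library scaling. The tested genes whose profile lay nearest to that of Cxcl1, by root mean square distance of centred log2 CPM, were Dhrs9 (0.114, r = 0.99), Pspc1 (0.151, r = 0.98) and Tmem100 (0.154, r = 0.97). Those nearest to Cxcl6 were the cytokine gene Il19 (0.278, r = 0.97), Cyp3a9 (0.296, r = 0.96) and Il10, an anti-inflammatory cytokine gene (0.416, r = 0.92). Nearest to Cxcl3 were Slc17a6, Clca4l and Il33, an alarmin of the interleukin-1 family, at 0.311, 0.348 and 0.352. Cxcl10 ran with Cyr61 (0.0633, r = 0.99), Gas2l3 and Lrrn3, and Cxcl11 with Tnfsf10 (0.225, r = 0.94), which encodes the death ligand TRAIL. For Ccl2 the nearest was G6pc (0.0990, r = 0.96), for Ccl7 Sc5d (0.139, r = 0.93) and for Cx3cl1 Zyx (0.0606, r = 0.96).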

How the data were processed

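Total RNA of 12 libraries was sequenced after preparation with a stranded mRNA kit, per the labels' protocols. The submitters' processing notes name HISAT2, StringTie 1.3.0 and CASAVA, with Rnor_6.0 as build; the sources used here do not give the counting tool, its strand setting or the annotation release. Per the file headers, the authors deposited raw counts, which are whole numbers, beside FPKM, their own length- and depth-scaled values. Counts were tested in edgeR 4.0.16 (R 4.3.3): filterByExpr by group, TMM, 1 quasi-likelihood fit of all 12 libraries without a block, and Benjamini-Hochberg adjustment over 12360 genes, called under 0.05. The standard error of a log2 change is its size over the square root of F. Zero groups were set against a floor of 3 counts. Intervals are 95%, and counting intervals are exact. FPKM values were not tested as the main result. The members, gene lists and tests were chosen with earlier results of these data known.

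All 10 members are named. From each list and comparison, the 3 called genes with the smallest p could be named, and every receptor of a member. Not every gene that this rule allows is reported here. Likeness used log2 CPM with a prior count of 2. Alternatives were DESeq2 1.42.0 (size factors and Wald test), upper-quartile factors, no filter, limma 3.58.1 on log2(FPKM + 1), fits of only the groups compared, a replicate block and leaving out each library. Libraries of a group differed by more than sampling noise, so none was a copy of another. This does not show that they are separate cultures. The analysis was tested on simulated data. Totals of 16555215 to 21506669 counts set the precision, and no value column was left unmapped.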

Additional observations from a re-analysis of the deposited data

Results flagged for a closer look

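Chemokine genes that MiaTAM and BxTAM changed to different extents against MDM co-culture are given here, with the difference tested as MiaTAM against BxTAM in edgeR's quasi-likelihood fit (Benjamini-Hochberg adjusted p). Cxcl6 differed by -0.61 ± 0.16 (adjusted p = 0.00934), with a rise of 1.55 in MiaTAM and 2.15 in BxTAM, and the 3 MiaTAM libraries all lay below the 3 BxTAM libraries. Cxcl10 differed by -0.25 ± 0.06 (adjusted p = 0.00650), with log2 changes of -0.995 in MiaTAM and -0.74 in BxTAM. Cxcl1 differed by -0.15 ± 0.05 (adjusted p = 0.0444), with a rise of 0.98 in MiaTAM and 1.13 in BxTAM. Cx3cl1 differed by 0.35 ± 0.08 (adjusted p = 0.00349), at 0.16 in MiaTAM and -0.19 in BxTAM, neither of which passed against MDM co-culture. Cxcl6 lost the call in 1 setting, without MiaTAM library 2 (adjusted p = 0.0591). Cxcl1 lost it in 10: without any 1 of the 6 MiaTAM and BxTAM libraries (adjusted p from 0.0534 to 0.201), by DESeq2 (0.0528), with DESeq2 size factors (0.0538) or upper-quartile factors (0.0752) in edgeR, and by limma (0.0674).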

How the results depend on the processing

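Of 48 member changes, 34 were called. Among all tested genes, calls ran from 11.0% higher and 13.3% lower in MiaTAM against BxTAM to 32.0% higher and 33.1% lower in MDM against alone. Over 619 recomputed values, 588 kept direction and side of the threshold, 15 lost the call, 9 gained one and 7 turned direction, none of them a called change. Upper-quartile factors turned Cxcl10 in MDM against alone to 0.0380 and Cx3cl1 in BxTAM against alone to 0.0140. With 1 library left out, Cxcl10 in MDM against alone ranged from -0.0434 to 0.00147, Cx3cl1 in BxTAM against alone from -0.0687 to 0.00102, Cxcl3 in MiaTAM against alone from -0.0161 to 0.250, Cxcl11 in MiaTAM against MDM from -0.390 to 0.0870 and Cxcl11 in MiaTAM against BxTAM from -0.0192 to 0.458. The cause was not tested. Calls lost were those of Cxcl1 (10 settings) and Cxcl6 (1) in MiaTAM against BxTAM and of Cxcl3 (4) in BxTAM against alone.

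Leaving out 1 library gave 2 to 4 called members in MiaTAM against BxTAM (4 with all libraries; 2 without MiaTAM library 2), and 1933 to 3113 called genes in all (2997 with all libraries; 1933 without MiaTAM library 2, 1978 and 1976 without BxTAM libraries 2 and 3). Fewer libraries entered these fits. With only the groups compared in the fit, Cxcl11 was not kept by the filter against cells alone.

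Same-numbered libraries of different groups correlated by -0.13 to 0.09 after removal of group means, and other pairs by -0.12 to 0.19. With 3 libraries per group, a weak pairing could go unseen, so these values do not decide whether the numbers pair the samples. A replicate block gave 4 called members in MiaTAM against BxTAM, 5 in MiaTAM and 6 in BxTAM against MDM, and 7 in MiaTAM, 7 in BxTAM and 6 in MDM against cells alone. Over all genes it called 2993, 5059, 4275, 8021, 7496 and 8046 in the same order. The sixth member in MDM against alone was Ccl7 (0.36, adjusted p = 0.0476).

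Depth limits Cxcl2, Cxcl11 and Ccl20, with 16, 86 and 14 counts in all libraries.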
